A study of Mus musculus with 186 samples.

Results

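In a mouse model of scleroderma made by injecting bleomycin, a DNA-damaging drug, under the skin, 10 genes of the IL-1 and IL-6 cytokine families were measured by total RNA sequencing of lung and skin. They are the IL-1 family ligands Il1a, Il1b and Il18, the receptor antagonist Il1rn, the decoy receptor Il1r2, the IL-6 family ligands Il6, Lif, Osm and Il11, and the oncostatin M receptor subunit Osmr. The members were given by name and found as the rows whose Ensembl ID carries that symbol in GENCODE M21, which gave 10 of the 22095 gene IDs of the count table. The match from name to row used no measured value, but the members were named with earlier results of these data known. All 10 passed the filter on low counts in lung (15647 genes tested) and in skin (15825 genes tested).

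Female C57BL/6 mice about 12 weeks old were given bleomycin at 10 mg/kg/day or PBS subcutaneously on 5 days a week for 2 weeks, and tissue was taken on days 7, 14, 21, 28 and 42. From day 12, mice of the later time points were also dosed by mouth with 30 mpk of SB525334, an inhibitor of the TGF-beta type I receptor kinase ALK5, or with its vehicle. The bleomycin groups were BLM_d7, BLM_d14, BLM_d21_Veh, BLM_d28_Veh and BLM_d42_Veh, the bleomycin groups with the inhibitor were BLM_d21_SB525334 and BLM_d28_SB525334, and the controls were PBS_d7, PBS_d14, PBS_d21_Veh, PBS_d28_Veh and PBS_d42_Veh. No oral agent is given in the labels for days 7 and 14. Each group has 7 to 9 libraries in lung (the superior lobe) and 7 to 9 in skin (a punch of the injected area between the shoulder blades). That makes 93 libraries in 12 groups per tissue. The skin was therefore the site of injection and the lung was not.

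IL-1 alpha and IL-1 beta signal through one receptor that recruits MyD88 and activates NF-kB. IL-1 beta and IL-18 are made as inactive precursors that inflammasome caspases cut, IL-1 receptor antagonist blocks the receptor, and the type II receptor binds IL-1 without signalling. IL-6, LIF, oncostatin M and IL-11 all use the shared subunit gp130, encoded by Il6st, with further receptor chains that differ between ligands, and signal mainly through JAK kinases and STAT3. In skin, keratinocytes hold IL-1 alpha and IL-18, and neutrophils and monocytes are a main source of IL-1 beta and oncostatin M. In lung, IL-6 family cytokines act on fibroblasts, epithelium and macrophages.

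All 10 are protein-coding genes of GRCm38. Il1a (chr2:129299610-129309972) and Il1b (chr2:129364570-129371139) lie on the minus strand 54597 bases apart, and Il1rn (chr2:24336853-24351494) is on the plus strand of the same chromosome. Osm (chr11:4236420-4241026) and Lif (chr11:4257557-4272514) are plus-strand neighbours 16530 bases apart. The others are Il1r2 (chr1:40074079-40125231, plus), Il6 (chr5:30013114-30019981, plus), Il11 (chr7:4772373-4782859, minus), Il18 (chr9:50554827-50581840, plus) and Osmr (chr15:6813577-6874969, minus).

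The promoters of the 5 members that the results below turn on most are printed so that the genes that moved together can be compared by eye. Each is the RefSeq window of 250 bases before to 50 bases after a start site on GRCm38.p6, 5′ to 3′ on the gene's strand, at chr2:129371090-129371389 (Il1b, minus), chr1:40085843-40086142 (Il1r2, plus), chr5:30012864-30013163 (Il6, plus), chr11:4257318-4257617 (Lif, plus) and chr15:6874264-6874563 (Osmr, minus). Capitals mark matches to 5 motifs searched on both strands: STAT (TTCNNNGAA), AP-1 (TGANTCA), NF-kB (GGANTTTCC), CRE (TGACGTCA) and SMAD (CAGACA).
Il1b: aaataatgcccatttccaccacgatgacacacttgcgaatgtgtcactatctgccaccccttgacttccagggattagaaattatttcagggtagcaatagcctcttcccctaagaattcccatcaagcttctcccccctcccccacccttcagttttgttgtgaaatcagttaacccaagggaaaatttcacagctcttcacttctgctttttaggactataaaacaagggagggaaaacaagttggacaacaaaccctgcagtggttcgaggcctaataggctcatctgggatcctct
Il1r2: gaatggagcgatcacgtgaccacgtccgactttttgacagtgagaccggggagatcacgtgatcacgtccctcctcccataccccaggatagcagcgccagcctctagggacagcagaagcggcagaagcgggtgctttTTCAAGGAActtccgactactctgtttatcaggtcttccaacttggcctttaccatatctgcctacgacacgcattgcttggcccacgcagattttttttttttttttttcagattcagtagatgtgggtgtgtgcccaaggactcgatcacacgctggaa
Il6: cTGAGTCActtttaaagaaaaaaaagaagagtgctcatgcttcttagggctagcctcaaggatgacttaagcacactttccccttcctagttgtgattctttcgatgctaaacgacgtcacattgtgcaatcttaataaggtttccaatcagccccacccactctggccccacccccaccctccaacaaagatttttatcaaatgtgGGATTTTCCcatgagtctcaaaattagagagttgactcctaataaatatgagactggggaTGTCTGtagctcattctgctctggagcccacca
Lif: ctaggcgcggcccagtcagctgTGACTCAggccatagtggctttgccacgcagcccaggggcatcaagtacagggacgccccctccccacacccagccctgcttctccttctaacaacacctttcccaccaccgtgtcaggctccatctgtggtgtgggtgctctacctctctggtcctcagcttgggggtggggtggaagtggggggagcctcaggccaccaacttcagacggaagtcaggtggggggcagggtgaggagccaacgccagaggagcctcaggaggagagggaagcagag
Osmr: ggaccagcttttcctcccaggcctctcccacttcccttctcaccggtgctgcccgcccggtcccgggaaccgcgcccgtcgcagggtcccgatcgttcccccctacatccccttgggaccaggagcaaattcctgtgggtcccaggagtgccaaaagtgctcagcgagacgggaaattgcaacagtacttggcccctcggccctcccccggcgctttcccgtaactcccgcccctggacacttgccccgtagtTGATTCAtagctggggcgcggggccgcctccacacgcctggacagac
No matches overlapped. The capitals are a STAT match in Il1r2, an AP-1 match, an NF-kB match and a SMAD match in Il6, and an AP-1 match in each of Lif and Osmr. Il1b held none of the letters in this window. Of the 12 windows of 9 members in the RefSeq table, 6 held an AP-1 match (Il1a, Il1rn, Il6, Il11, Lif and Osmr, 1 window each). Among all 32851 promoter windows of the table, 7.81% held an AP-1 match, 8.30% a STAT match, 1.25% an NF-kB match, 1.79% a CRE match and 21.0% a SMAD match. A match is a stretch of letters and not a measured binding site.

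Library totals ran from 4.79 M to 38.34 M counts in lung and from 14.68 M to 43.07 M counts in skin. The tissues carried their own markers: the alveolar and airway list summed to 10654 to 55168 CPM (counts scaled to 1 M per library) in lung against 57.5 to 1052 CPM in skin, and the epidermal list to 8441 to 32562 CPM in skin. Of the 93 lung libraries, 17 stood apart, by over 1000 CPM of epidermal, hair or liver transcripts, by a top 10 gene share over 14%, or by a ribosomal protein share over 5%. The last kind all came from day 28, in all of its 3 groups, and included the shallowest library. In skin, hair shaft transcripts ran from 14.9 to 33898 CPM and skeletal muscle transcripts from 7.1 to 17846 CPM between libraries. Replicates are separate samples in the labels, and nothing there matches mice between the tissues.

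Levels were set side by side per kilobase of exon. In PBS skin of all days (n = 39) the decoy receptor Il1r2 was highest at 31.6 ± 9.46 CPM per kb (SD), then Il18 at 21.9 ± 5.75 and Il1rn at 10.7 ± 1.47. Below them came Osmr at 9.56 ± 2.35, Il1a at 7.03 ± 1.84 and Il1b at 4.08 ± 3.42 CPM per kb. The gp130 ligands were low in PBS skin, with Lif at 0.554 ± 0.190, Osm at 0.421 ± 0.266, Il6 at 0.345 ± 0.405 and Il11 at 0.219 ± 0.0952 CPM per kb. In PBS lung (n = 39) Osmr was highest at 10.9 ± 1.42 CPM per kb, followed by Il18 at 7.85 ± 1.48, Il1b at 6.37 ± 3.32, and Il1a at 2.63 ± 0.633. The lower tier in lung held Il1rn at 1.55 ± 0.465, Osm at 1.18 ± 0.583, Il1r2 at 0.986 ± 0.956, Lif at 0.655 ± 0.241, Il6 at 0.241 ± 0.140 and Il11 at 0.193 ± 0.0755 CPM per kb. Neighbours that differed by less than the larger of their SDs were, in skin, Il1rn and Osmr, Il1a and Il1b, and the 4 low ligands among themselves, and, in lung, Il18 and Il1b, the run of Il1rn, Osm, Il1r2 and Lif, and Il6 and Il11. In bulk tissue a lower level can mean fewer cells of a type or less RNA per cell, and the counts cannot tell these apart.

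In bleomycin skin Il1b, Il18 and Il1a were higher than in PBS skin on day 14, and none of these IL-1 family ligands was called on day 42. Changes were tested with edgeR's quasi-likelihood F test and counted as calls where the p adjusted by Benjamini-Hochberg over the tissue's genes was below 0.05. Of the 10 members, 5 rose and 1 fell on day 7, when 46.2% of all tested genes were called, and 7 rose and 1 fell on day 14, when 59.6% were called. Then 5 rose and none fell on day 21 against a background of 41.2%, and 5 rose and 1 fell on day 28 against 24.3%. On day 42, 1 rose and 1 fell against 10.2%. These shares count genes called in either direction. Those that rose were 4035, 4981, 3191, 2013 and 835 of 15825 genes from day 7 to day 42. The members' median log2 fold change was 1.03 on day 14 against 0.01 over all genes, and 0.10 on day 42 against -0.04. With hair and muscle scores as added terms, an alternative chosen after the data were seen, 4, 9, 6, 7 and 5 members were called from day 7 to day 42. The same terms gave calls for 7339, 9775, 4914, 4324 and 3764 of all 15825 genes on these days.

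Il1b gave the largest rise of the set in skin. On day 14 the 8 bleomycin libraries held 12.1, 7.84, 28.7, 6.66, 4.32, 604, 22.0 and 63.0 CPM, against 1.44 to 6.54 CPM with a median of 2.50 CPM in the 8 PBS libraries. The ranges overlapped, since the lowest bleomycin library was below the highest PBS library, and 1 bleomycin library, replicate 6, lay far above the other 7. The log2 fold change was 4.72 ± 0.63 (SE, adjusted p = 1.23e-09, higher than the PBS mean in 8 of 8 libraries). Without replicate 6 it was 2.75 ± 0.47 (adjusted p = 7.88e-07). The 4 libraries a side on plate 1 differed by 1.76 and those on plate 2, which held replicate 6, by 4.31 on the log2 scale.

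On day 7, Il1b ran from 5.00 to 13.8 CPM (median 7.18) in bleomycin skin and from 1.66 to 4.73 CPM (median 3.20) in PBS skin, with no overlap. Its day 7 log2 fold change was 1.48 ± 0.59 (adjusted p = 0.0333), and the call was lost on leaving out any of 5 libraries, 2 of bleomycin and 3 of PBS, with an adjusted p of up to 0.0898. The rise was 2.04 ± 0.56 (adjusted p = 0.00231) on day 21, where bleomycin libraries held 10.2 to 92.0 CPM (median 21.9) against 2.41 to 16.1 CPM (median 7.27) in PBS. On day 28 it was 1.66 ± 0.58 (adjusted p = 0.0259), with 11.1 to 54.8 CPM against 3.72 to 17.2 CPM, and leaving out BLM_d28_Veh replicate 3 or PBS_d28_Veh replicate 1 ended that call (adjusted p up to 0.0783). By day 42 the difference was 0.56 ± 0.53 (adjusted p = 0.495). Bleomycin skin had not come down by then: its medians were 7.18, 17.1, 21.9, 24.1 and 23.6 CPM from day 7 to day 42, against 3.20, 2.50, 7.27, 7.91 and 18.8 CPM in PBS skin, so between days 28 and 42 the PBS median was the one that changed.

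Il18, which epithelial cells keep as a ready precursor, moved with little scatter. It ran from 36.4 to 62.4 CPM (median 44.9) in bleomycin skin on day 7, against 20.1 to 30.1 CPM (median 24.3) in PBS skin, and from 52.8 to 78.0 CPM (median 67.6) on day 14, against 22.1 to 34 CPM (median 26.2). The groups did not overlap on either day. The log2 fold changes were 0.90 ± 0.19 (adjusted p = 7.23e-05) and 1.28 ± 0.18 (adjusted p = 1.03e-08). On day 21 the ranges overlapped and the change was 0.65 ± 0.19 (adjusted p = 0.00427). Il1a, the other keratinocyte ligand, was called on day 14 alone among the bleomycin comparisons in skin. It had 23.2 to 88.0 CPM (median 29.8) in bleomycin against 12.2 to 20.7 CPM (median 15.4) in PBS. The groups did not overlap and the log2 fold change was 1.21 ± 0.20 (adjusted p = 4.37e-07). The highest of these was again replicate 6.

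The 2 brakes of the pathway went opposite ways in skin. Il1rn, the receptor antagonist, rose on day 14 to 66.3 to 325 CPM (median 77.2), against 49.6 to 78.4 CPM (median 55.1) in PBS, a log2 fold change of 0.85 ± 0.16 (adjusted p = 2.66e-06) between overlapping ranges. The 325 CPM was in replicate 6, and the other 7 bleomycin libraries ran from 66.3 to 98 CPM. Il1r2, the decoy receptor, fell on day 7 to 17.8 to 36.7 CPM (median 24.8), against 54.9 to 66.0 CPM (median 61.4). The groups did not overlap, and the log2 fold change was -1.24 ± 0.21 (adjusted p = 1.09e-06). On day 14 the bleomycin libraries held 19.5 to 24.9 CPM in 7 of 8 and 83.0 CPM in replicate 6, against 52.8 to 99.3 CPM in PBS (log2 fold change -1.37 ± 0.20, adjusted p = 9.67e-09). The call held at both late times: the log2 fold change was -1.0 ± 0.21 (adjusted p = 1.59e-04) on day 28 and -0.90 ± 0.20 (adjusted p = 0.00119) on day 42. On day 21 it was -0.43 ± 0.20 (adjusted p = 0.0798), when PBS skin ran from 29.8 to 69.5 CPM. PBS levels of Il1r2 also differed between days (adjusted p = 0.0406).

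Of the gp130 ligands in skin, Osm and Il6 rose with Il1b. Osm, a macrophage and neutrophil product, ran on day 14 from 1.57 to 55.5 CPM (median 4.37) in bleomycin skin, against 0.118 to 1.17 CPM (median 0.594) in PBS skin, with no overlap. Its log2 fold change was 3.98 ± 0.54 (adjusted p = 1.94e-09), and 2.62 ± 0.44 (adjusted p = 4.91e-07) without replicate 6. It was 1.88 ± 0.51 (adjusted p = 0.00210) on day 21 and 1.93 ± 0.53 (adjusted p = 0.00426) on day 28, when 1.41 to 6.24 CPM in bleomycin skin lay wholly above 0.396 to 1.37 CPM in PBS skin.

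Il6 stayed near the limit of these depths: on day 14 bleomycin skin had 0.534 to 1.89 CPM (median 1.21) against 0 to 1.13 CPM (median 0.179) in PBS skin. That was a log2 fold change of 2.01 ± 0.58 (adjusted p = 0.00208), and 2.73 ± 0.63 (adjusted p = 1.57e-04) without PBS_d14 replicate 4. It was 1.66 ± 0.54 (adjusted p = 0.00999) on day 21, which became 1.03 ± 0.55 (adjusted p = 0.129) without BLM_d21_Veh replicate 4 at 6.98 CPM. On day 28 it was 1.59 ± 0.56 (adjusted p = 0.0289), a call lost on leaving out any of 6 of 14 libraries (adjusted p up to 0.0721). The day 7 calls of Il6 (1.3 ± 0.56, adjusted p = 0.0469) and Osm (1.27 ± 0.54, adjusted p = 0.0453) were lost on leaving out any of 12 and 10 of 15 libraries (adjusted p up to 0.101 and 0.0992).

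Lif, Il11 and Osmr moved little in skin. Lif rose by 0.57 ± 0.19 (adjusted p = 0.0120), 0.82 ± 0.19 (adjusted p = 1.20e-04), 0.53 ± 0.20 (adjusted p = 0.0370) and 0.66 ± 0.18 (adjusted p = 0.0130) on the log2 scale on days 7, 14, 28 and 42, always between overlapping ranges, such as 3.48 to 5.16 CPM in bleomycin skin on day 42 against 0.850 to 3.99 CPM in PBS skin. The calls on days 7 and 42 each ended without 1 library, BLM_d7 replicate 4 (0.43, adjusted p = 0.0646) and PBS_d42_Veh replicate 7 (0.54, adjusted p = 0.0560), and that on day 28 without any of 6 of 14 (adjusted p up to 0.0960). Il11, a stromal cytokine, rose on day 28 alone of the 5 days, with 0.560 to 1.34 CPM (median 1.15) in bleomycin against 0.373 to 0.605 CPM (median 0.467) in PBS (1.07 ± 0.33, adjusted p = 0.0115). Osmr rose on day 21 alone, with 108 to 173 CPM against 54.0 to 149 CPM (0.49 ± 0.14, adjusted p = 0.00298). With hair and muscle scores as added terms, chosen after the data were seen, Osmr was called on all 5 days. Its log2 fold changes were then 0.26 to 0.37 (edgeR adjusted p from 0.00249 to 0.0105).

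**Figure D1:**
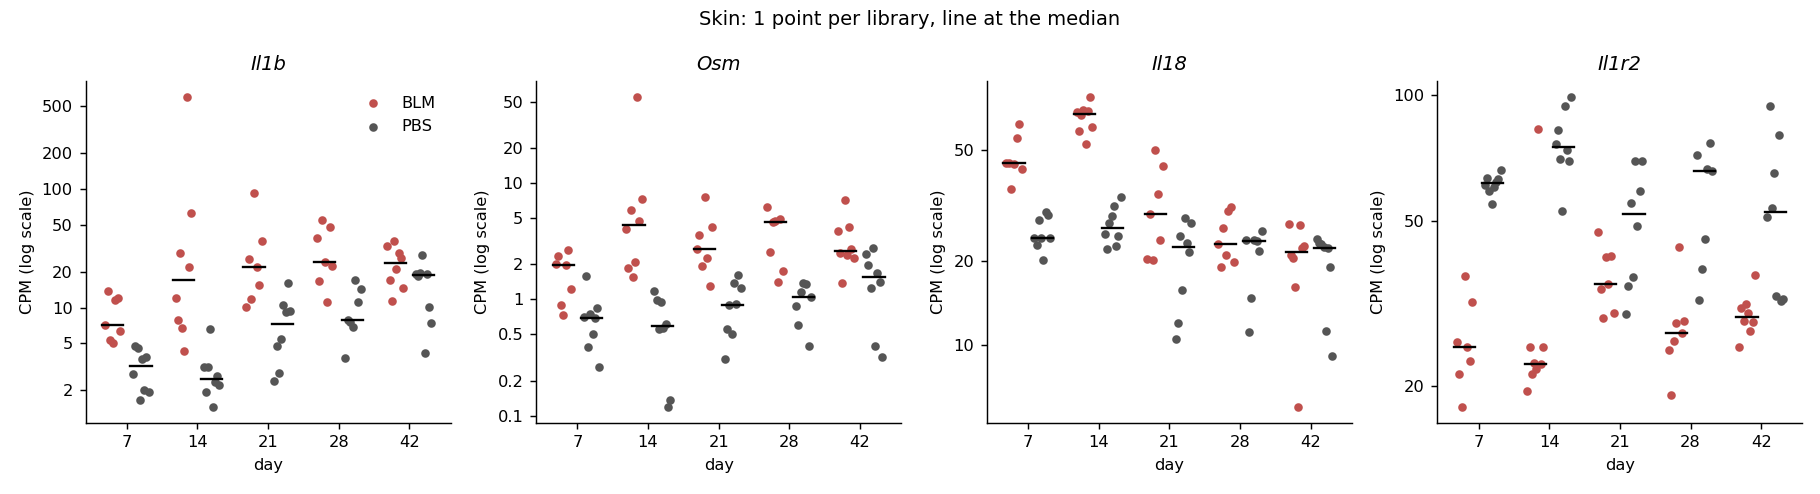
Skin levels of Il1b, Osm, Il18 and Il1r2 in CPM on a log axis by day, 1 point per library (BLM red, PBS grey), with the median as a line. On day 14 Il18 and Osm libraries of bleomycin skin lie wholly above PBS, 1 bleomycin library stands out at 604 CPM of Il1b and 83.0 CPM of Il1r2, and the other 7 Il1r2 values lie below every PBS library.

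Transcripts of other cells moved in the same skin samples. On day 14 all 9 tested genes of the neutrophil list (14 genes, Ly6g at a median of 0) rose, and their sum ran from 106 to 1418 CPM in bleomycin skin against 5.2 to 23.1 CPM in PBS skin. The highest sum was in replicate 6, the library with the highest Il1b. Of 14 monocyte and macrophage genes 13 rose (2581 to 3759 CPM against 1534 to 3082 CPM). Of 11 epidermal genes 6 rose and 1 fell (20676 to 29397 CPM against 12847 to 15942 CPM), and all 8 fibroblast genes fell (2814 to 6517 CPM against 11199 to 21523 CPM). Whether these differences in makeup carry the cytokine changes was not tested.

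In bleomycin lung the gp130 ligands and Osmr rose and the IL-1 ligands did not pass the test on any day. Members called, all higher, numbered 5 on day 7, 6 on day 14, 4 on day 21, 4 on day 28 and 3 on day 42. The background over all genes, in either direction, was 31.7%, 46.4%, 35.3%, 38.1% and 19.4% from day 7 to day 42. Genes that rose numbered 2170, 3287, 2486, 3081 and 1976 of 15647 on these days. The day 28 background depended on the libraries in the fit: with its 2 groups alone 120 of 14741 genes and 2 members were called, and without the 17 libraries that stood apart 3369 of 15711 genes and 5 members. Lif, Il11 and Osmr were the members called on all 5 days.

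Lif, a cytokine of stressed epithelium and stroma, ran on day 14 from 8.62 to 26.0 CPM (median 14.6) in bleomycin lung against 1.25 to 3.8 CPM (median 2.04) in PBS lung, 6.58 times higher by the fitted change. The groups did not overlap on days 7, 14 and 21. The log2 fold changes were 1.5 ± 0.23 (adjusted p = 3.47e-07) on day 7, 2.72 ± 0.23 (adjusted p = 2.08e-16) on day 14, 1.72 ± 0.23 (adjusted p = 5.18e-09) on day 21, 1.72 ± 0.25 (adjusted p = 1.77e-07) on day 28 and 1.22 ± 0.22 (adjusted p = 1.86e-05) on day 42. On day 28 bleomycin lung ran from 2.26 to 25.7 CPM and PBS lung from 2.11 to 4.22 CPM, so the ranges overlapped.

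Osmr, which pairs with gp130 to receive oncostatin M, was the most precisely measured member. Bleomycin lung held 227 to 264 CPM (median 238) on day 14 against 128 to 158 CPM (median 138) in PBS lung, and the groups did not overlap on days 7, 14 and 21. Its log2 fold changes were 0.50 ± 0.09 (adjusted p = 9.48e-06), 0.82 ± 0.09 (adjusted p = 1.04e-12), 0.77 ± 0.09 (adjusted p = 7.43e-11), 0.33 ± 0.09 (adjusted p = 0.00376) and 0.44 ± 0.09 (adjusted p = 7.93e-05) from day 7 to day 42. On day 28 the 2 libraries a side on plate 2 alone gave -0.07, against 0.49 for the 5 a side on plate 1. On day 42, replicate 1 was at 90.4 CPM against 164 to 197 CPM in the other 7; this library also carried the liver transcripts.

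Il11 was scarce but rose on all 5 days, from 0.634 to 1.67 CPM (median 1.15) in bleomycin lung on day 14 against 0.209 to 0.577 CPM (median 0.411) in PBS lung, with no overlap. Its log2 fold change was 1.46 ± 0.24 (adjusted p = 5.18e-07) on day 14 and between 0.78 ± 0.25 (day 42, adjusted p = 0.0192) and 1.35 ± 0.28 (day 28, adjusted p = 1.26e-04) on the others. Il6 rose on day 7 by 1.39 ± 0.37 (adjusted p = 0.00229) and on day 14 by 1.92 ± 0.36 (adjusted p = 8.18e-06), where bleomycin lung held 0.423 to 3.59 CPM (median 1.39) against 0.125 to 0.924 CPM (median 0.345). Osm was called on day 14 only, higher by 1.03 ± 0.21 (adjusted p = 4.98e-05), with 1.43 to 5.20 CPM in bleomycin lung and 0.794 to 2.20 CPM in PBS lung. Bleomycin lung had not come down after that: Osm averaged 3.1 CPM on day 14, 3.75 CPM on day 21 and 3.42 CPM on day 28. PBS lung was higher from day 21 than on day 14, as given with the controls below.

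Il1rn rose in lung on days 7 to 28. Its libraries ran from 12.0 to 21.5 CPM (median 18.2) in bleomycin lung on day 21 against 6.32 to 10.8 CPM (median 7.51) in PBS lung, without overlap, for a log2 fold change of 1.16 ± 0.22 (adjusted p = 1.70e-05). It was 1.06 ± 0.21 (adjusted p = 2.67e-05) on day 14, 0.98 ± 0.23 (adjusted p = 8.12e-04) on day 28 and 0.10 ± 0.22 (adjusted p = 0.821) on day 42. The day 7 call (0.55 ± 0.22, adjusted p = 0.0494) was lost on leaving out any of 10 of 15 libraries (adjusted p up to 0.109), and on day 28 the 2 libraries a side on plate 2 gave -0.35 against 1.24 on plate 1. Il1b, Il1a and Il18 gave log2 fold changes between -0.27 and 0.39, and their groups overlapped on all 5 days.

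Il1r2 in lung changed direction with the libraries that were used. It was -0.03 ± 0.40 (adjusted p = 0.963) on day 14, with 1.27 to 5.16 CPM in bleomycin lung and 0.711 to 9.72 CPM in PBS lung, and its highest PBS value was in replicate 6, a library with over 1000 CPM of epidermal and hair genes. With the 17 libraries that stood apart left out, an alternative chosen after the data were seen, it was 0.78 (adjusted p = 0.0322) on day 14 and 0.83 (adjusted p = 0.0161) on day 21. The members called were then 5, 7, 6, 5 and 3 from day 7 to day 42, when 5931, 8958, 7784, 3369 and 3626 of all 15711 genes were called. On day 28 Il18 then fell by 0.66 on the log2 scale (adjusted p = 0.0117). Beside these members, 13 of 14 monocyte and macrophage genes rose on day 14 (7048 to 10006 CPM in bleomycin lung against 4696 to 5932 CPM in PBS lung). Of 11 neutrophil genes 3 rose (140 to 275 CPM against 54.7 to 260 CPM, Elane at a median of 0). Their part in the results was not tested.

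**Figure D2:**
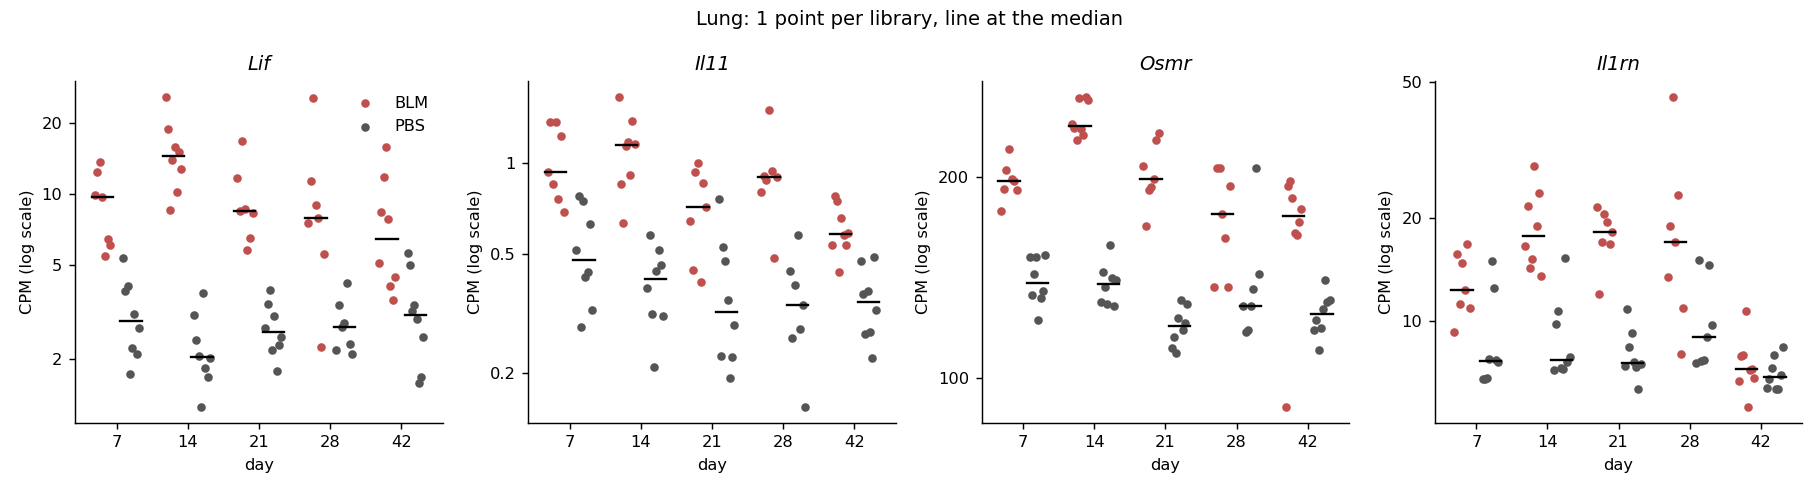
Lung levels of Lif, Il11, Osmr and Il1rn in CPM on a log axis by day, 1 point per library (BLM red, PBS grey), with the median as a line. Lif and Osmr of bleomycin lung lie wholly above PBS on days 7, 14 and 21, and Il1rn meets PBS again on day 42.

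The difference between the tissues was tested as the bleomycin effect in skin minus that in lung, in a fit of all libraries of both tissues. It was called for 1 of 10 members on day 7 (16.6% of all genes), 8 on day 14 (32.3%), 6 on day 21 (30.1%), 5 on day 28 (26.0%) and 2 on day 42 (12.1%). On day 14 the effect was larger in skin for Il1b by 4.29 ± 0.63 (adjusted p = 9.31e-09), Osm by 2.91 ± 0.55 (adjusted p = 6.66e-06), Il18 by 1.12 ± 0.25 (adjusted p = 1.15e-04) and Il1a by 0.99 ± 0.26 (adjusted p = 0.00134) on the log2 scale. It was lower in skin for Lif at -1.94 ± 0.30 (adjusted p = 2.20e-08), Il1r2 at -1.39 ± 0.42 (adjusted p = 0.00606), Il11 at -1.29 ± 0.41 (adjusted p = 0.00873) and Osmr at -0.66 ± 0.16 (adjusted p = 5.55e-04). Single libraries moved some of these day 14 values, with no call lost when each of the 32 was left out. Without BLM_d14 skin replicate 6, Il1b was 2.32 ± 0.52 (adjusted p = 1.50e-04) and Osm 1.54 ± 0.47 (adjusted p = 0.00686), and Il1rn gained a call at -0.66 ± 0.24 (adjusted p = 0.0285). Without PBS_d14 lung replicate 6, Il1r2 was -2.19 ± 0.41 (adjusted p = 6.48e-06). With every library, Il6 differed by 0.06 ± 0.63 (adjusted p = 0.962) and Il1rn by -0.26 ± 0.26 (adjusted p = 0.502), intervals that leave room for a difference in either direction.

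**Figure D3:**
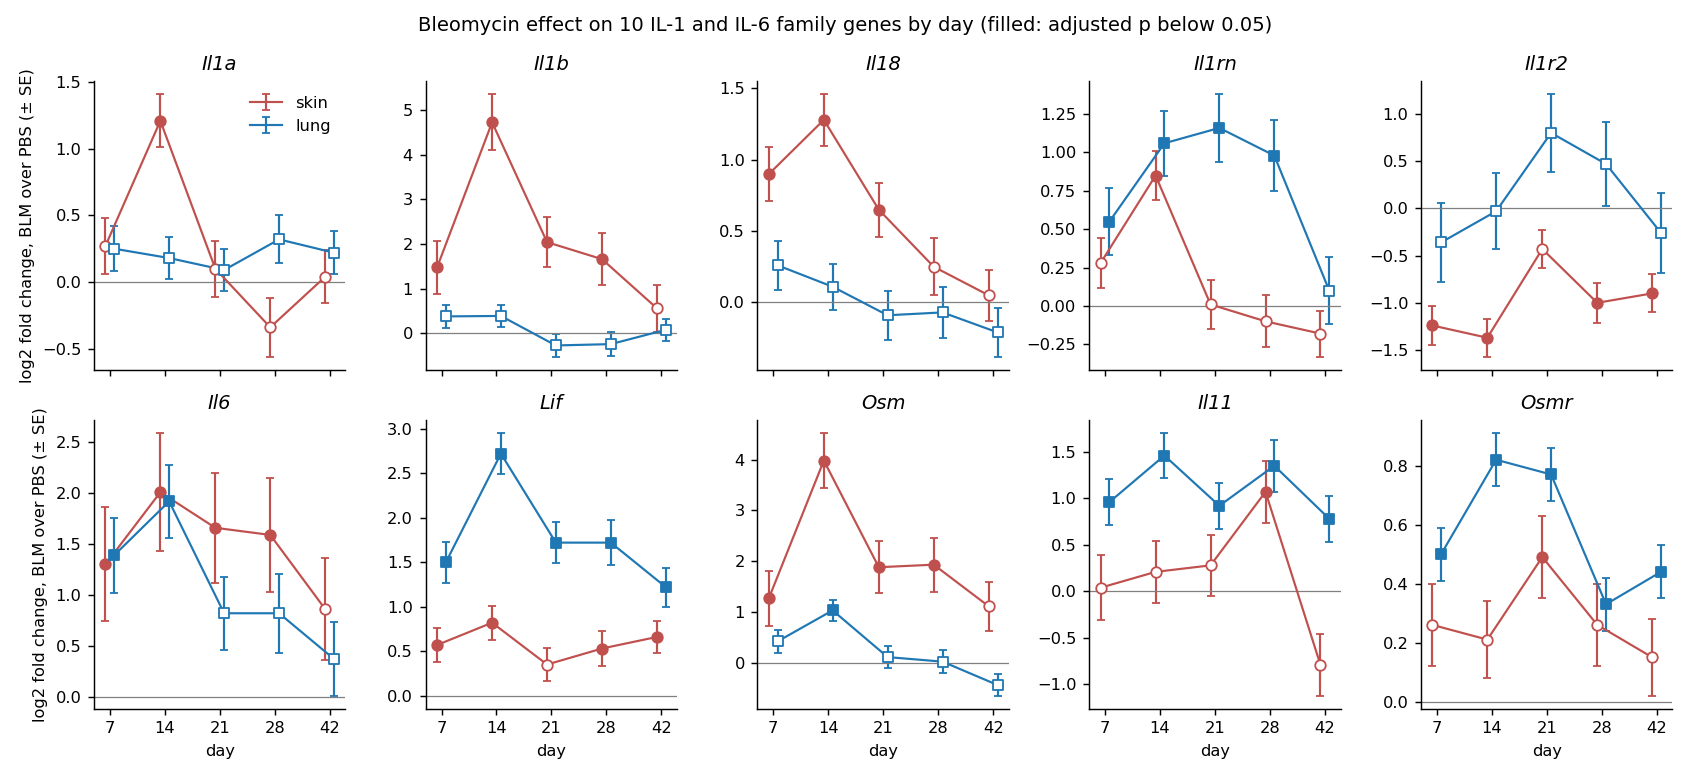
Log2 fold change of bleomycin over PBS (± SE) by day for each member in skin (red circles) and lung (blue squares); filled symbols have an adjusted p below 0.05. The IL-1 ligands and Osm peak on day 14 in skin, Lif, Il11 and Osmr lie higher in lung on day 14, and Il1r2 lies below 0 on all 5 days in skin.

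Between day 14 and day 42 the bleomycin effect became lower for 5 members in each tissue. Over all genes 15.3% in lung and 50.9% in skin had a called change in either direction, and 4.67% and 27.9% one toward lower values. In skin these were Il1b (-4.16 ± 0.80, adjusted p = 1.41e-05), Osm (-2.88 ± 0.70, adjusted p = 4.82e-04), Il18 (-1.23 ± 0.26, adjusted p = 7.10e-05), Il1a (-1.17 ± 0.29, adjusted p = 5.07e-04) and Il1rn (-1.03 ± 0.22, adjusted p = 7.01e-05). Without BLM_d14 replicate 6 the skin values of Il1b and Osm were -2.19 (adjusted p = 0.00259) and -1.5 (adjusted p = 0.0271). That library also held 325 CPM of Il1rn, against 66.3 to 98 CPM in the rest of its group. In lung the members with a lower effect were Il6 (-1.54 ± 0.51, adjusted p = 0.0267), Lif (-1.5 ± 0.32, adjusted p = 4.42e-04), Osm (-1.47 ± 0.30, adjusted p = 2.83e-04), Il1rn (-0.96 ± 0.30, adjusted p = 0.0216) and Osmr (-0.39 ± 0.12, adjusted p = 0.0214). The lung change of Il6 was lost on leaving out any of 4 libraries, PBS_d14 replicate 4, PBS_d42_Veh replicate 4 or BLM_d14 replicate 1 or 4 (adjusted p up to 0.0682). The effect is bleomycin relative to PBS, so a change in either group moves it. The Il1b median of bleomycin skin was 17.1 CPM on day 14 and 23.6 CPM on day 42, while PBS skin rose. Osm of bleomycin lung averaged 3.1 and 2.58 CPM on those days, while PBS lung rose.

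The controls also differed between days. Among PBS groups, Il1b and Osm differed between days in lung (adjusted p = 5.70e-04 and 5.69e-06; 21.7% of all genes did so), and Il1a, Il1b, Il1r2 and Il6 did so in skin (adjusted p = 0.0497, 2.08e-04, 0.0406 and 0.00207; 55.2% of all genes). Il1b of PBS skin averaged 3.14 ± 1.22, 2.93 ± 1.57, 7.57 ± 4.62, 9.81 ± 4.66 and 15.7 ± 7.74 CPM from day 7 to day 42 (SD, n = 7 or 8). Osm of PBS lung averaged 1.56 ± 0.348 and 1.5 ± 0.530 CPM on days 7 and 14 and 3.39 to 3.51 CPM from day 21. The later PBS groups also received oral vehicle, so day, age and oral dosing cannot be told apart here.

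In bleomycin skin SB525334 went with higher Il1a, Il18 and Il1rn, and none of the other 7 members was called there. On day 21, 3 of 10 members were higher with the inhibitor than with vehicle, when 11.8% of all genes were called, and on day 28 it was 1 of 10 against 23.9%. Il1a ran from 20.3 to 40.8 CPM (median 24.1) with SB525334 against 9.15 to 23.1 CPM (median 14.1) with vehicle on day 21, and from 14.1 to 22.0 CPM (median 15.8) against 7.02 to 14.5 CPM (median 10.3) on day 28. The ranges of the groups overlapped narrowly on both days, and the log2 fold changes were 0.90 ± 0.21 (adjusted p = 0.00160, above the vehicle mean in 9 of 9) and 0.69 ± 0.21 (adjusted p = 0.0125, 8 of 8).

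Il18 ran from 38.4 to 69.6 CPM (median 53.5) with SB525334 on day 21 against 20.2 to 50.3 CPM (median 29.5) with vehicle, a log2 fold change of 0.76 ± 0.19 (adjusted p = 0.00293), and 0.44 ± 0.19 (adjusted p = 0.0841) on day 28. Il1rn was higher on day 21, with 62.8 to 122 CPM (median 81.1) against 38.1 to 87.7 CPM (median 57.8), by 0.48 ± 0.16 (adjusted p = 0.0306), and the call was lost on leaving out any of 6 of 16 libraries (adjusted p up to 0.0901). Il11 was the member farthest in the other direction, at 0.301 to 0.840 CPM (median 0.600) with SB525334 on day 28 against 0.560 to 1.34 CPM (median 1.15) with vehicle, a log2 fold change of -0.79 ± 0.31 that did not pass (adjusted p = 0.0544); DESeq2 and limma voom called it (adjusted p = 0.0282 and 0.0129).

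The epidermal list moved in the same skin libraries: 6 of 11 tested genes rose on day 21, and the sum ran from 16288 to 32562 CPM (median 25990) with SB525334 against 10872 to 25033 CPM (median 12697) with vehicle. Of 8 fibroblast genes 6 fell on each day. With hair and muscle scores as added terms, chosen after the data were seen, Il1a was 0.80 (adjusted p = 0.00335) and Il18 0.56 (adjusted p = 0.0133) on day 21, Il1rn lost its call at 0.41 (adjusted p = 0.0516), and Il1a on day 28 lost its call at 0.58 (adjusted p = 0.0570). Il11 on day 28 gained a call with these terms, at -0.9 (edgeR adjusted p = 0.0437). The part of the epidermal difference in the Il1a and Il18 values was not tested.

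**Figure D4:**
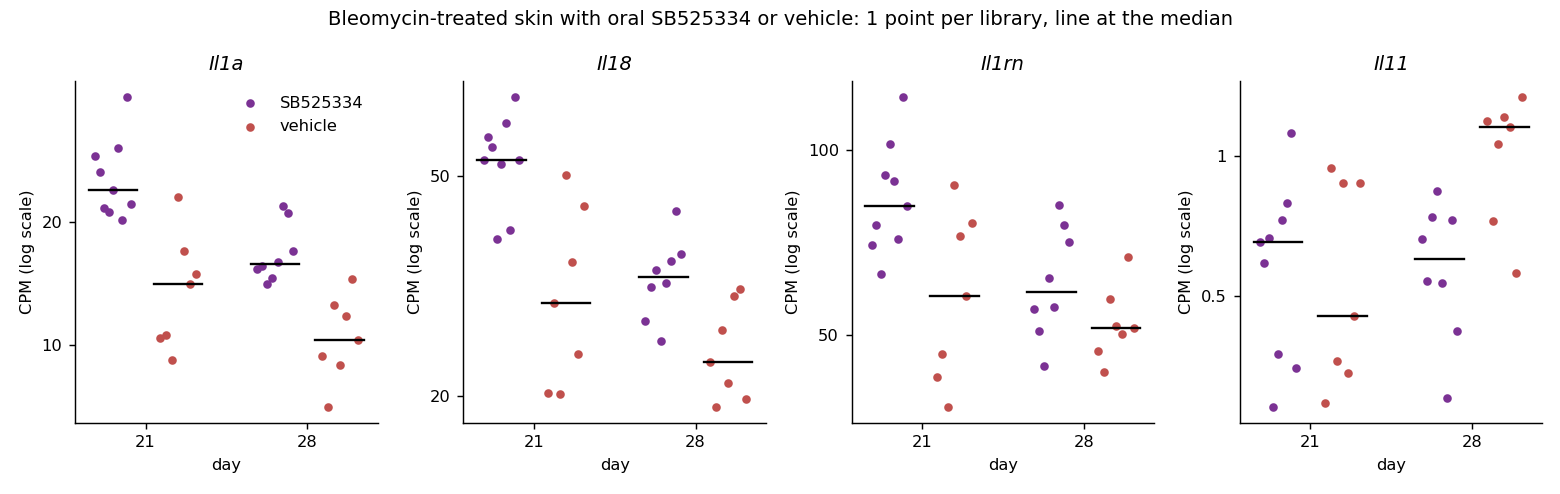
Skin levels of Il1a, Il18, Il1rn and Il11 in CPM on a log axis in bleomycin-treated mice on days 21 and 28, 1 point per library (SB525334 purple, vehicle red), with the median as a line. All SB525334 values of Il1a on day 21 are at or above 20.3 CPM, against a vehicle median of 14.1 CPM, and Il11 on day 28 has a median of 0.600 CPM with SB525334 and 1.15 CPM with vehicle.

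In lung SB525334 gave no call among members on day 21 with edgeR (0 of 10, and 0 at an unadjusted p under 0.05; 0.403% of all genes), and none with DESeq2 or limma-trend, while limma voom called Il1rn (0.37, adjusted p = 0.0222). On day 28, when 8.37% of genes were called, Osmr was lower by 0.28 ± 0.09 on the log2 scale (adjusted p = 0.0359). It had 120 to 189 CPM (median 141) with SB525334 and 137 to 206 CPM (median 176) with vehicle. That call was lost on leaving out any of 7 of 15 libraries (adjusted p up to 0.154). Without the libraries that stood apart it was -0.23 (adjusted p = 0.205), and on plate 2 alone 0.07. In the same comparison 9 of 10 skeletal muscle genes fell (sum 13.4 to 28.4 CPM with SB525334, 8.5 to 4858 CPM with vehicle). Of 8 fibroblast genes 3 fell (1351 to 2312 CPM against 1565 to 5315 CPM), and of 11 neutrophil genes 6 rose (267 to 1046 CPM against 148 to 421 CPM, Elane at a median of 0). Their part in the Osmr value was not tested. No difference of the inhibitor's effect between the 2 days passed edgeR's test for any member in lung (0 of 10, 1 at an unadjusted p under 0.05; 0.173% of all genes) or skin (0 of 10, 1 at an unadjusted p under 0.05; 0.0569% of all genes), with 0 for DESeq2 in both and 1 for limma voom in skin.

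The surrounding pathways were read from lists whose members were counted without a test of the list. In skin on day 14, 9 of 10 IL-1 family ligands rose and 1 fell (median log2 fold change 1.65 against 0.01 over all genes), among them the epidermal IL-36 genes. Over all genes 59.6% were called that day and 31.5% rose. Il1f6, which encodes IL-36 alpha, was at 33.0 ± 7.99 CPM in bleomycin skin against 2.56 ± 1.42 CPM in PBS skin (SD, n = 8 each; log2 fold change 3.68 ± 0.50, adjusted p = 1.96e-09). Il1f8 (IL-36 beta) rose by 2.38 ± 0.29 (adjusted p = 9.35e-11) and Il1f5, the IL-36 receptor antagonist, by 1.56 ± 0.18 (adjusted p = 2.64e-11). On the same day 9 of 13 inflammasome and processing genes rose and none fell, when 31.5% of all genes rose and 59.6% were called in either direction. The sensor Nlrp3 was at 4.63 to 152 CPM in bleomycin skin against 0.839 to 2.68 CPM in PBS skin (4.08 ± 0.45, adjusted p = 2.22e-12). The highest library was replicate 6 again, and without it the other 7 averaged 11.8 ± 7.15 CPM and the log2 fold change was 2.80 ± 0.34 (adjusted p = 7.76e-11). Of 20 NF-kB response genes 17 rose (median 1.80), including Tnf by 2.63 ± 0.31 (adjusted p = 1.56e-11; 2.00 ± 0.26 without replicate 6, adjusted p = 4.31e-10) and Bcl3 by 1.76 ± 0.22 (adjusted p = 9.66e-11). With SB525334, 6 of 10 IL-1 family ligands were higher on day 21, when 5.81% of all genes were higher, among them Il1f8 by 1.21 ± 0.29 (adjusted p = 0.00241) and Il1f5 by 0.91 ± 0.19 (adjusted p = 4.02e-04). On day 28, 2 of 10 were higher, when 1937 of all 15825 genes were higher. With the hair and muscle terms the counts were 4 on day 21 and 0 on day 28. Those terms gave calls in either direction for 3810 and 2798 of 15825 genes on the 2 days.

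In lung on day 14, 2 of 7 tested IL-1 family ligands rose and 1 fell, close to the 46.4% of all genes called that day. Il33, an alarmin of epithelial and stromal nuclei, was on day 7 at 315 ± 42.4 CPM in bleomycin lung (n = 7) against 149 ± 12.1 CPM in PBS lung (n = 8), a log2 fold change of 1.08 ± 0.12 (adjusted p = 1.36e-10). The one that fell on day 14, Il1f5, is an epidermal gene (0.115 ± 0.117 CPM in bleomycin lung against 1.79 ± 4.11 CPM in PBS lung). No ligand fell on day 14 once the libraries that stood apart were left out. On that day 13 of 23 STAT3 response and acute-phase genes rose and 1 fell (median 0.58 against -0.02 over all genes), when 21.0% of all genes rose. Lrg1 rose by 2.15 ± 0.19 (adjusted p = 4.73e-16), Serpina3n by 2.20 ± 0.22 (adjusted p = 6.73e-14) and Socs3, the feedback inhibitor of gp130 signalling, by 1.53 ± 0.16 (adjusted p = 3.82e-13). Of 8 IL-6 family receptors, Osmr rose and 4 fell on day 14. Those that fell included Il6ra by -0.72 ± 0.11 (adjusted p = 5.22e-08), Lifr by -0.54 ± 0.09 (adjusted p = 1.27e-06) and Cntfr by -1.69 ± 0.29 (adjusted p = 1.25e-06), while the shared chain Il6st, named after its value was seen, was at 0.09 ± 0.06 (adjusted p = 0.189).

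In skin the IL-6 family receptors fell in 4 of 8 cases and rose in 1 on day 14, near the 59.6% of all genes called then. On day 21, when 41.2% of all genes were called, 4 rose and 2 fell (median 0.30). Lifr rose by 0.76 ± 0.18 (adjusted p = 6.36e-04), with 275 to 376 CPM against 84.1 to 275 CPM in PBS skin. The difference between the 2 days was not tested for these receptors. On day 14 Il31ra, the IL-31 receptor chain, was at 5.65 ± 1.93 CPM in bleomycin skin against 44.1 ± 13.4 CPM in PBS skin (SD, n = 8 each; -2.95 ± 0.39, adjusted p = 1.14e-09), and Il11ra1 fell by 0.90 ± 0.14 on the log2 scale (adjusted p = 3.50e-08). Of 22 STAT3 response and acute-phase genes 9 rose and 6 fell that day (median 0.30). The ligand Il27, a gp130 cytokine of myeloid cells, reached 0.675 ± 0.135 CPM in bleomycin skin against 0.0886 ± 0.0916 CPM in PBS skin (2.93 ± 0.45, adjusted p = 4.86e-08).

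Across the 93 libraries of each tissue the members fell into different company, described by Pearson's r of log2 CPM with plate removed. These libraries share treatment, day and makeup, so the values describe these samples only. In skin Il1b was closest to Ptgs2 (0.92), Cxcl2 (0.89) and Osm (0.89), Osm to Cd14 (0.90), and Il6 to Cxcl1 (0.82). Il18 was closest to Tmprss4, Them5 and Tprg (0.96 each), Il1a to Csta1 (0.92) and Asprv1 (0.91), genes of the cornifying epidermis, and Il1r2 to Igfbp3 and Gsn (0.82 each). In lung Lif was closest to Tnip3 and the p53 target Aen (0.92 each), Osmr to Thbs1 (0.91), Il1rn to Capg (0.90), Il1b to the neutrophil gene S100a9 (0.79), Il11 to Celf5 (0.81) and Il1r2 to the epidermal connexin Gjb5 (0.75). Between members, Lif and Osmr had r = 0.87 in lung and 0.51 in skin, and Il1b and Osm had 0.89 in skin and 0.70 in lung.

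**Figure D5:**
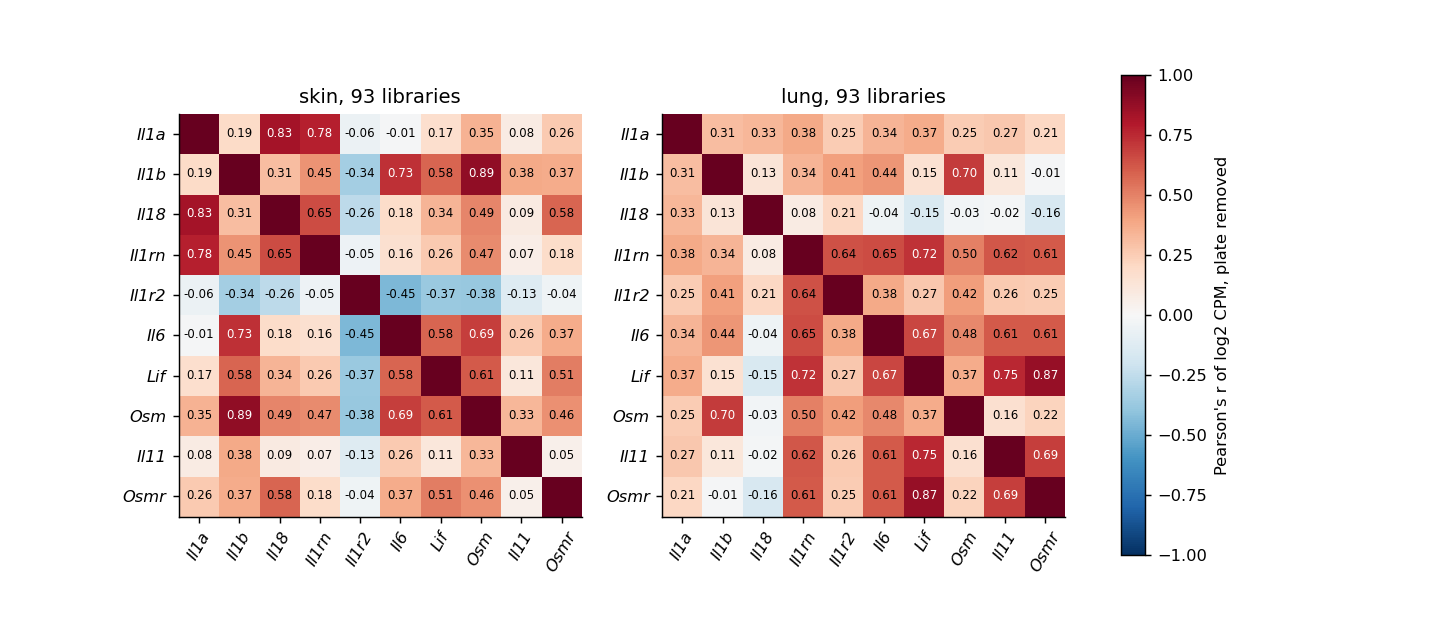
Pearson's r between the log2 CPM of the 10 members over the 93 libraries of skin (left) and of lung (right), with plate removed; red is positive and blue negative, and each cell prints r. In skin the strong cells are Il1b with Osm (0.89) and Il1a with Il18 (0.83), and in lung Lif with Osmr (0.87) and Lif with Il11 (0.75).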

How the data were processed

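RNA from lung (superior lobe) and injected skin was sequenced as stranded total RNA after ribosomal depletion, per the labels' protocols. The authors deposited expected counts per gene from RSEM on GRCm38, per the submitters' processing notes, and a table of log2 CPM of expressed protein-coding genes corrected for plate; the aligner and the versions are not given in the sources used here. Depth was 4.79 M to 38.34 M counts per library in lung and 14.68 M to 43.07 M counts in skin, which limits Il6 and Il11 most.

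The deposited expected counts were rounded to whole numbers and tested with edgeR 4.0.16 in R 4.3.3: filterByExpr, TMM, a term for plate, all 93 libraries of a tissue in 1 fit of 12 groups, and the quasi-likelihood F test with Benjamini-Hochberg adjustment over all genes tested, called below 0.05. Each SE was recovered from the F statistic, as the size of the fold change on the log2 scale divided by √F. CPM values use TMM library sizes. The difference between tissues was tested in 1 fit of the libraries of both tissues, taken as independent. The procedure was tested on simulated data.

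Named were all 10 members, at most 3 further genes per list and tissue with the smallest p among those called, and for each member the 3 genes with the highest Pearson's r of log2 CPM (prior count 2); the text gives the closest of these. The members and lists were chosen with earlier results of these data known. P-values measure the spread between libraries, since the labels give replicate numbers only. Same-numbered samples were not paired. Alternatives were RLE size factors, no filter, no plate term, DESeq2 1.42.0, limma 3.58.1 (voom with quality weights, and limma-trend on the deposited log2 values), the compared groups alone, a replicate block and each library left out in turn. Leaving out lung libraries that stood apart, and hair and muscle terms in skin, were added after the data were seen.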

Additional observations from a re-analysis of the deposited data

Results flagged for a closer look

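In 35 of 240 groups of a member's values the highest or lowest library lay far from the others, in 23 libraries. The gap was taken as a share of the range of CPM values. Chance alone gives about 1 in 20 groups only if values are normally distributed. The count therefore does not show an excess. Of the 35 groups, 5 were in 1 skin library, BLM_d14 replicate 6, at 604 CPM of Il1b, 325 CPM of Il1rn, 88.0 CPM of Il1a, 83.0 CPM of Il1r2 and 55.5 CPM of Osm. Its neutrophil list summed to 1418 CPM, and the part of that in these values was not tested.

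Other high values in bleomycin skin without inhibitor were Il1b at 92.0 and Il6 at 6.98 CPM in BLM_d21_Veh replicate 4, Il1r2 at 43.1 CPM in BLM_d28_Veh replicate 5 and Il6 at 9.07 CPM in BLM_d42_Veh replicate 4. Low ones were Il1a at 1.40 CPM in BLM_d42_Veh replicate 5 and Osmr at 93.8 CPM in BLM_d7 replicate 3. In BLM_d21_SB525334 skin Il1a stood at 40.8 and Il1b at 103 CPM in replicate 8, Il6 at 5.76 CPM in replicate 4 and Lif at 4.97 CPM in replicate 6. In PBS skin Il1b stood at 6.54 CPM in PBS_d14 replicate 4, Il6 at 5.52 CPM in PBS_d42_Veh replicate 4, and Il6 at 2.24 and Osm at 1.58 CPM in PBS_d7 replicate 2.

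In bleomycin lung Il1b was at 14.2 and Il6 at 2.79 CPM in BLM_d7 replicate 6, Il1b at 24 CPM in BLM_d14 replicate 1 and Il1r2 at 5.16 CPM in BLM_d14 replicate 4. On day 28 Il1rn was at 45.3 and Lif at 25.7 CPM in BLM_d28_Veh replicate 3, Il1r2 at 8.22 CPM in replicate 2, and Il1rn at 42.0 CPM in BLM_d28_SB525334 replicate 2. In BLM_d42_Veh Il1rn was at 10.7 CPM in replicate 4 and Osmr low at 90.4 CPM in replicate 1, and in BLM_d21_SB525334 Il1b was low at 8.15 CPM in replicate 3. In PBS lung Il1rn was at 15.3 and Il1r2 at 9.72 CPM in PBS_d14 replicate 6, and Il1r2 at 5.85, Il6 at 1.97 and Osmr at 206 CPM in PBS_d28_Veh replicate 6.

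The bleomycin effect differed between days or tissues by the test of the difference itself. From day 14 to day 42 it changed in skin by -4.16 for Il1b, -2.88 for Osm, -1.23 for Il18, -1.17 for Il1a and -1.03 for Il1rn on the log2 scale, and in lung by -1.54 for Il6, -1.50 for Lif, -1.47 for Osm, -0.96 for Il1rn and -0.39 for Osmr. Skin minus lung was -0.99 for Lif on day 7. On day 14 it was 4.29 for Il1b, 2.91 for Osm, 1.12 for Il18, 0.99 for Il1a, -0.66 for Osmr, -1.29 for Il11, -1.39 for Il1r2 and -1.94 for Lif. It was 2.25 for Il1b, 1.71 for Osm, 0.68 for Il18, -1.20 for Il1rn, -1.30 for Il1r2 and -1.43 for Lif on day 21, and 1.88 for Il1b, 1.88 for Osm, -1.12 for Il1rn, -1.21 for Lif and -1.54 for Il1r2 on day 28. On day 42 it was 1.55 for Osm and -1.56 for Il11. Without skin library BLM_d14 replicate 6 the day 14 values of Il1b and Osm were 2.32 and 1.54 between the tissues, and their changes to day 42 in skin were -2.19 and -1.50. Without lung library PBS_d14 replicate 6 the day 14 value of Il1r2 between the tissues was -2.19.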

How the results depend on the processing

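Counts are of members called. Bleomycin against PBS gave 22 calls in lung and 27 in skin over 5 days, and skin minus lung gave 22. The single inhibitor call in lung became 0 without the plate term, with limma-trend on the deposited log2 values, with the 2 groups alone and without the libraries that stood apart, and ranged from 0 to 2 with 1 library left out; limma voom lost it too and called Il1rn on day 21 instead. The 4 inhibitor calls in skin became 8 with limma voom and 7 with the 2 groups alone. Limma voom also gave 8 in place of 5 for day 42 minus day 14 in skin and 1 in place of 0 for the inhibitor's day 28 minus day 21 there. PBS days gave 4 in place of 2 in lung without the libraries that stood apart, and 2 in place of 4 in skin with no filter on low counts. Over all genes, bleomycin against PBS in lung gave 120 (2 groups alone) and 3369 (without the libraries that stood apart) in place of 5955 on day 28, 8719 (2 groups alone) in place of 5516 on day 21, and with limma voom 7941 in place of 4961, 9240 in place of 5516 and 5540 in place of 3036 on days 7, 21 and 42. In skin it gave 3541 (2 groups alone) in place of 6518 on day 21, 6011 (voom) in place of 3844 on day 28, and 387 (2 groups alone), 1019 (voom), 1035 (no plate term) and 3764 (hair and muscle terms) in place of 1620 on day 42. The inhibitor in lung gave 891 (2 groups alone), 121 (DESeq2), 1319 (voom), 302 (without the libraries that stood apart) and 41 (replicate block) in place of 63 on day 21, and 0, with 2 groups alone, 43 (voom) and 866 (no plate term) in place of 1310 on day 28. In skin it gave 3810 (hair and muscle terms) and 3440 (voom) in place of 1872 on day 21 and 6621 (voom) in place of 3780 on day 28. Day 42 minus day 14 gave 6390 (voom) and 4107 (without the libraries that stood apart) in place of 2399 in lung. Day 28 minus day 21 of the inhibitor gave 0 to 288 in place of 27 in lung and 2 to 1677 in place of 9 in skin. PBS days gave 6861 (voom) and 5257 (without the libraries that stood apart) in place of 3402 in lung and 2314 (hair and muscle terms) in place of 8742 in skin. The cause was not tested. For skin minus lung, DESeq2, limma, no filter and the compared groups alone were not run, and libraries were left out on day 14 only, which gave 22 to 23 calls over 5 days. A replicate block gave 21 and 27 bleomycin calls, 1 and 4 inhibitor calls and 22 for skin minus lung. Same-numbered samples of the compared groups had correlations of -0.721 to 0.793 and never all above 0.1. Such mixed values show no steady pairing but cannot exclude it. Same-numbered samples of lung and skin were not correlated. Calls had the same sign on both plates in 20 of 23 cases in lung and 31 of 31 in skin. Shallow day 28 lung libraries, and CPM near 0 for Il6 and Il11, limit those values most.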
